A study of Homo sapiens with 3 samples.

Results

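The genes described here are 10 feedback inhibitors of ERK signaling: the dual-specificity phosphatases DUSP1, DUSP4, DUSP5 and DUSP6, the Sprouty genes SPRY1, SPRY2 and SPRY4, the Sprouty-related genes SPRED1 and SPRED2, and PHLDA1. They were found by gene name among the non-control probes of the arrays, where they had 13 of 58171 probes, and all 10 were among the 22619 genes measured. Expression was measured in HCT116 cells, an established human colorectal cancer line, grown in serum and transfected with oligonucleotides by Lipofectamine. SMARCA4-KD1 and SMARCA4-KD2 cells received one or the other siRNA against SMARCA4, the ATPase subunit of SWI/SNF chromatin remodeling complexes, and NC cells a scrambled negative control. There was 1 array of each, the time from transfection to RNA extraction was not given in the sources used here, and knockdown was transient and partial. Both knockdown arrays were on 1 slide and the NC array was on another, so that slide and knockdown cannot be told apart, and no condition had a replicate. The values below are therefore a description of 3 arrays, without a test. The RNA came from whole cultures, in which fewer cells of a type and less RNA per cell cannot be told apart.

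ERK, the last kinase of the RAS, RAF and MEK cascade, carries growth factor signals to the nucleus, and among the genes it turns on are its own inhibitors. DUSPs remove both phosphates from the activation loop of MAP kinases, DUSP5 and DUSP6 with a preference for ERK, whereas DUSP1 also acts on JNK and p38. Sprouty and SPRED proteins act upstream, between the receptor and RAF, and SPRED1 does so by bringing the RAS inactivator neurofibromin to the membrane. In cancer cells these transcripts, DUSP6 above all, are widely used as a readout of ERK output.

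The sequence of siRNA-1 is shown because it is one of the agents that define the knockdown groups. It is printed 5′ to 3′ as the sample records give it, and the records do not say which strand it is.
siRNA-1: ucgcuuugguucgcaaauc

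The level of SMARCA4 was read first, since sample titles name SMARCA4 but the treatment field, from which the knockdown numbers were taken, names PRMT1. Its probe (hg19, chr19:11172673-11172732) had a spot intensity of 14026 in NC, against 3960 in SMARCA4-KD1 and 4129 in SMARCA4-KD2, or 26.6% and 28.8% of the control after scaling, whereas PRMT1 was 0.27 and 0.37 higher than NC on the log2 scale. The arrays thus followed the titles. Each array was scaled to its 75th percentile, an intensity between 223 and 237, and between 45.7% and 47.3% of the probes were well above background, a flag that the extraction software sets for each spot. All 5 epithelial markers (EPCAM, CDH1, KRT8, KRT18 and KRT19) were well above background on every array. Of 8 markers of blood, endothelial and stromal cells, CD68 had no probe, CD3E, PECAM1 and COL1A2 were not well above background on any array, and the other 4 (PTPRC, VWF, COL1A1 and ACTA2) had intensities between 24.1 and 585 on single arrays. None of these 4 passed 1.5-fold in SMARCA4-KD1, whereas VWF was 2.11-fold and ACTA2 1.82-fold higher than NC in SMARCA4-KD2. Of the 4, 3 were above NC in both knockdowns by any amount, and their part in the results below was not tested.

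The ERK feedback inhibitors did not lie on 1 side of NC. PHLDA1 was at 42.7% and 43.8% of its NC level in SMARCA4-KD1 and SMARCA4-KD2, and DUSP6 at 64.7% and 68.5%. DUSP5 was 1.71-fold and 1.44-fold higher than NC, and DUSP1 1.38-fold and 1.33-fold higher. The other 6 genes lay within 0.34 of NC on the log2 scale in both knockdowns. In all, 3 genes were lower than NC in both knockdowns (DUSP6, SPRED1 and PHLDA1), 5 were higher in both (DUSP1, DUSP5, SPRY2, SPRY4 and SPRED2) and 2 had opposite signs (DUSP4 and SPRY1). All differences below are log2 values relative to the 75th percentile. With the arrays scaled to 8 spike-in control probes instead, the median of all genes moved from 0.03 to 0.34, and the sign of SPRED1 turned while that of PHLDA1, DUSP6, DUSP5 and DUSP1 did not.

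**Figure D1:**
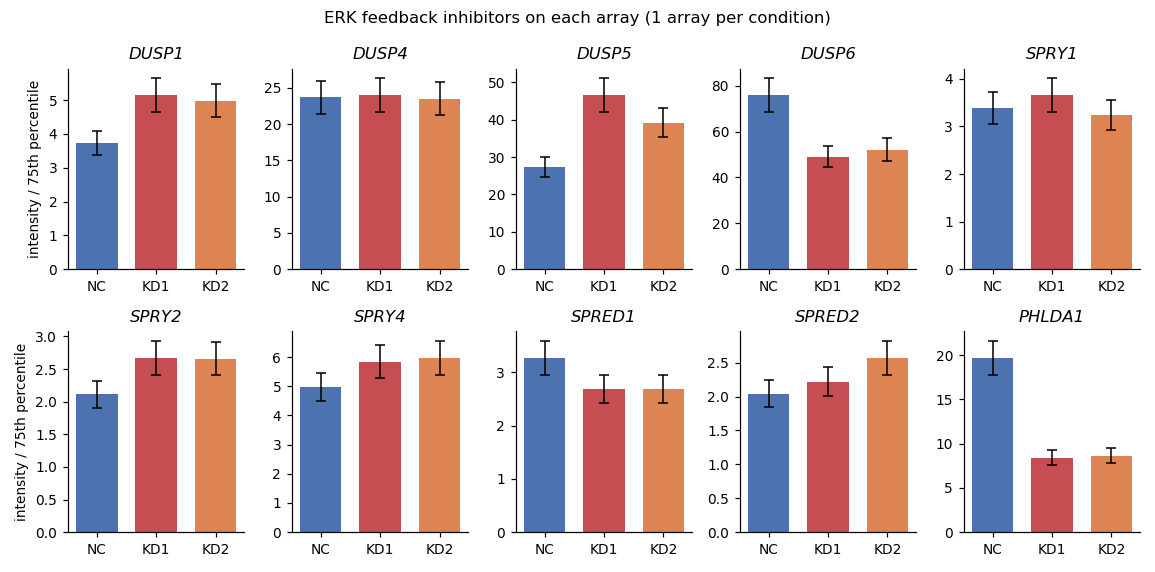
Level of each ERK feedback inhibitor on the NC, SMARCA4-KD1 (KD1) and SMARCA4-KD2 (KD2) array, as intensity divided by the array's 75th percentile. Each bar is 1 array and one probe, each panel has its own axis from 0, and the error bars are the 10% multiplicative error that the extraction software assumes for a spot, not a spread between replicates. The knockdown bars of PHLDA1 and DUSP6 lie under the NC bar, and those of DUSP5 and DUSP1 lie above it.

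Among the nuclear phosphatases, DUSP1 had the most spots. DUSP1, an immediate early gene also known as MKP-1, was read by 10 copies of 1 probe (NM_004417; chr5:172195296-172195355, minus strand), whose mean intensity was 834 in NC, against 1220 in SMARCA4-KD1 and 1138 in SMARCA4-KD2. Single spots ranged from 1155 to 1305 and from 1095 to 1224 on the knockdown arrays and from 802 to 869 on the NC array. These spot intensities are before scaling, and the SD within each array was about 0.04 on the log2 scale. The copies read 1 RNA sample, however, and are no replicates of a condition. Over 279 probes with many repeated spots the median SD within an array was 0.03, so even small differences between arrays can part the spots. How many of these probes have spots that part in this way was not counted, so the ranges show nothing particular to DUSP1. DUSP1 was 0.47 and 0.42 higher than NC, under the threshold of 1.5-fold (0.585) in both knockdowns.

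DUSP5, an ERK-specific nuclear phosphatase that also anchors ERK in the nucleus, had an intensity of 6090 in NC, against 11045 in SMARCA4-KD1 and 8967 in SMARCA4-KD2 (NM_004419; chr10:112270900-112270959, plus strand). It was higher than NC by 0.77 and 0.53, and passed 1.5-fold in SMARCA4-KD1 alone. By the mean of both knockdowns' differences from NC, here called the mean difference, DUSP5 was the highest of the 10 genes, and 7.93% of all genes were higher.

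DUSP4, also known as MKP-2, acts on ERK and JNK in the nucleus. Its intensity was 5297 in NC, against 5678 in SMARCA4-KD1 and 5359 in SMARCA4-KD2 (NM_001394; chr8:29194382-29194441, minus strand). Once scaled these were levels of 23.7 in NC, 24.0 and 23.5, and the differences from NC were 0.02 and -0.02. DUSP4, DUSP1 and DUSP5 thus spanned the range from differences near 0 to the highest among the 10 genes.

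DUSP6, or MKP-3, is the cytoplasmic phosphatase that is most selective for ERK. Its intensity was 16958 in NC, against 11638 in SMARCA4-KD1 and 11886 in SMARCA4-KD2 (NM_001946; chr12:89742144-89742203, minus strand). Both knockdown arrays were lower than NC, with differences of -0.63 and -0.54, which lie on either side of the threshold. By mean difference, 10.3% of all genes were lower than DUSP6. The 2 ERK-directed phosphatases therefore differed from NC in opposite directions: within an array the DUSP6 difference minus the DUSP5 difference was -1.40 for SMARCA4-KD1 and -1.07 for SMARCA4-KD2. This contrast was chosen after the values were seen. It needs no scaling between arrays, since any factor common to an array cancels in it.

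The Sprouty genes encode membrane-associated inhibitors of receptor tyrosine kinase signaling that bind GRB2 and RAF. SPRY2, which is reduced in several epithelial tumors, had an intensity of 472 in NC, against 632 in SMARCA4-KD1 and 608 in SMARCA4-KD2 (NM_005842; chr13:80910622-80910681, minus strand). It was 0.34 and 0.33 higher than NC, with no visible gap between the knockdowns. SPRY4 had an intensity of 1112 in NC, against 1383 and 1365 in the knockdowns (NM_030964; chr5:141690571-141690630, minus strand), which was 0.23 and 0.26 higher than NC. SPRY1 had an intensity of 758 in NC, against 867 and 742, at its brighter probe (NM_001258038; chr4:124318918-124318977, plus strand), with differences of 0.11 and -0.06. None of the 3 Sprouty genes reached 1.5-fold in either knockdown.

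SPRY1 and SPRY4 each had a second probe well above background on all arrays, for another transcript accession. The second probe of SPRY1 (NM_199327; chr4:124324494-124324553) had an intensity of 347 in NC, against 449 in SMARCA4-KD1 and 457 in SMARCA4-KD2. It was 0.29 and 0.37 higher than NC. The second probe was 0.18 above the brighter one in SMARCA4-KD1 and 0.43 above it in SMARCA4-KD2, where they differed in sign, with an error of 0.29 by the extraction model for such a difference of differences. The second probe of SPRY4 (NM_001293289; chr5:141694487-141694546) was dim, with an intensity of 37.1 in NC, against 45.1 and 42.1, and its differences of 0.20 and 0.15 were within the error of 0.27 of those of the bright probe.

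SPRED proteins share the Sprouty domain and add an EVH1 domain at the other end. SPRED1, the gene mutated in Legius syndrome, had an intensity of 731 in NC, against 637 in SMARCA4-KD1 and 614 in SMARCA4-KD2 (NM_152594; chr15:38645760-38645819, plus strand). Its difference from NC was -0.28 in both, or 82.2% of the NC level. SPRED2 had an intensity of 457 in NC, against 525 and 588 in the knockdowns (NM_181784; chr2:65538851-65538910, minus strand) and was higher than NC by 0.12 and 0.33. Both were under 1.5-fold, and SPRED1 is the one feedback inhibitor on 1 side of NC in both knockdowns whose mean difference changed sign with the spike-in scaling, to 0.03.

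PHLDA1, a pleckstrin homology-like protein that is induced by ERK and restrains receptor tyrosine kinase signaling, had an intensity of 4411 in NC, against 1998 in SMARCA4-KD1 and 1976 in SMARCA4-KD2 (NM_007350; chr12:76419627-76419686, minus strand). It was 2.34-fold and 2.28-fold lower than NC, a difference of -1.23 and -1.19 with a model error of about 0.20. By mean difference PHLDA1 ranked 318 from the lowest of 22619 genes, and 1.4% of all genes were lower. The PHLDA1 difference minus the DUSP6 difference on the same array was -0.60 and -0.65. A second PHLDA1 probe, designed on an Ensembl transcript (chr12:76426022-76426081), was not well above background on any array, so that the call rests on 1 probe and 1 spot per array.

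**Figure D2:**
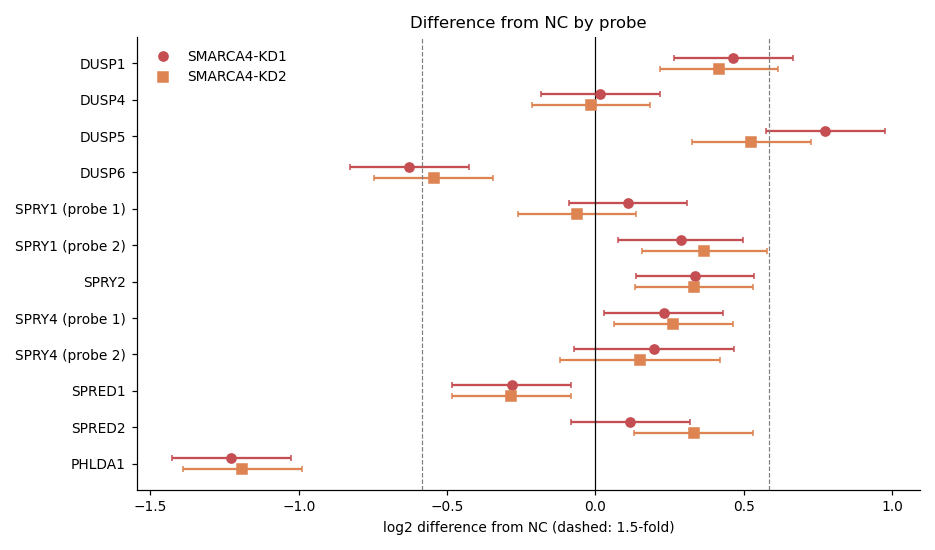
Difference of each knockdown from NC for each probe that was well above background on all arrays, in log2 units, with circles for SMARCA4-KD1 and squares for SMARCA4-KD2. Bars are the error of the difference from the extraction software's error model (0.20 for bright probes), and dashed lines mark 1.5-fold. PHLDA1 lies beyond the lower line in both knockdowns, DUSP6 in SMARCA4-KD1 only, and DUSP5 lies beyond the upper line in SMARCA4-KD1 only.

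Counts of genes past 1.5-fold were read against the share of all genes past it. Of the 10 feedback inhibitors, 2 were at least 1.5-fold lower than NC in SMARCA4-KD1 (DUSP6 and PHLDA1), where 12.2% of all genes were, and 1 was in SMARCA4-KD2 (PHLDA1), where 9.74% were. In the other direction 1 was at least 1.5-fold higher in SMARCA4-KD1 (DUSP5), against 11.2% of all genes, and 0 were in SMARCA4-KD2, against 10.1%. In both knockdowns 1 gene was lower (PHLDA1), against 8.02% of all genes, and 0 were higher, against 6.36%. DUSP6 was under the threshold in SMARCA4-KD1 after normexp background correction (-0.57) and with spike-in scaling (-0.33). Under quantile normalization, 2 genes were lower in both (DUSP6 and PHLDA1), and under spike-in scaling 3 were higher in both (DUSP1, DUSP5 and SPRY2). With 10 genes, these counts are near the background, and they show nothing particular to ERK feedback inhibitors as a group. The median of their mean differences was 0.12, beside 0.03 for all genes.

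**Figure D3:**
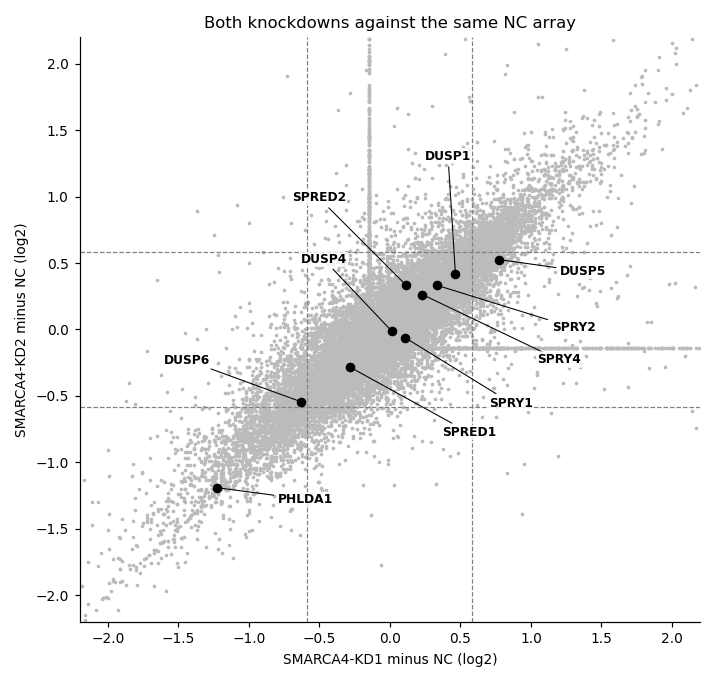
Difference from NC in SMARCA4-KD1 (horizontal axis) against SMARCA4-KD2 (vertical axis), both in log2 units, for genes within the axes (grey, 22442 of 22619) and the 10 feedback inhibitors (black). Dashed lines mark 1.5-fold, and straight lines of grey points are genes raised to the floor level of an array. Both axes share the NC array, so the diagonal cloud is partly built in, and PHLDA1 is the one black point beyond 1.5-fold on both axes.

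The knockdowns were also compared with each other, which leaves out the NC array and its slide. None of the 10 genes differed 1.5-fold between SMARCA4-KD1 and SMARCA4-KD2, where 6.58% of all genes did. The widest gaps were 0.25 for DUSP5, -0.21 for SPRED2 and 0.17 for SPRY1, each with SMARCA4-KD1 minus SMARCA4-KD2. The SD of 1 array, estimated from the gap between both arrays over genes that were well above background everywhere, was 0.18. The SD of the gap itself was larger than that, and 26.4% of all genes had a wider gap than DUSP5. PHLDA1 and DUSP6 differed between the knockdowns by -0.04 and -0.08, and SPRED1, SPRY2, DUSP4, SPRY4 and DUSP1 by no more than 0.05 in size.

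Promoter windows of the feedback inhibitors were searched on both strands for 4 motifs. They were CCGGAA, a longer form of the GGAA core of ETS factors that ERK regulates, and TGACGTCA for CRE. The others were TGANTCA for AP-1 factors and TATAAA for the box that places the start site. The search covered 12 windows of 300 bases from RefSeq (GRCh38.p14, another build than the hg19 of the probes). They belonged to 8 of the 10 genes, without DUSP4 and DUSP5. CCGGAA was in 3 of 12 windows, of SPRY1, SPRY2 and PHLDA1, and in 17.2% of all 34943 windows. CRE was in 1 window, of DUSP1, and in 1.84% of all. The TATA motif was in 2, of DUSP1 and SPRED2, and in 11.6% of all. AP-1 matched at 2 positions of 1 window, of SPRED2, and was in 7.72% of all. The window of DUSP6 matched none of the 4 motifs, although the shorter GGAA occurs in it. The 250 bases before the start site are shown for DUSP1 and PHLDA1, the former higher and the latter lower than NC in both knockdowns, and for DUSP6, which holds no match. They run 5′ to 3′ on the gene's strand, with matches in capitals.
DUSP1, chr5:172771196-172771445, minus strand: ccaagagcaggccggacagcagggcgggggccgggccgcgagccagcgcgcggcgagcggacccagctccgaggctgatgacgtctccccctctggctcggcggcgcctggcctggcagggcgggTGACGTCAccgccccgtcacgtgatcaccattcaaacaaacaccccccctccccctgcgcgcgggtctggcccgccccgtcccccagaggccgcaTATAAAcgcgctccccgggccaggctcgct
PHLDA1, chr12:76031777-76032026, minus strand: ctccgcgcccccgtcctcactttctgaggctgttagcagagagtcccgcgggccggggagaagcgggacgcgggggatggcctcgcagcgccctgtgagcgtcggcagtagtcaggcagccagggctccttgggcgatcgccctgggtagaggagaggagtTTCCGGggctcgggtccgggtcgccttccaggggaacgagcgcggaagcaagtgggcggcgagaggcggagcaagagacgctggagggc
DUSP6, chr12:89352502-89352751, minus strand: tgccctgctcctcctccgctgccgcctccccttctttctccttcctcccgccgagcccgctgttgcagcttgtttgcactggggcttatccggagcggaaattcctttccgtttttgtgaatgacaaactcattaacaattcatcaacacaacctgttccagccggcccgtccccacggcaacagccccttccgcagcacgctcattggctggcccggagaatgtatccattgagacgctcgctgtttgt
In DUSP1 the capitals are the CRE, whose first base is at -125 from the start site, and the TATA motif at -30. In PHLDA1 they are CCGGAA read on the opposite strand, at -89. A gene with CCGGAA was lower (PHLDA1), higher (SPRY2) and, by its brighter probe, near NC (SPRY1). The second probe of SPRY1 was 0.29 and 0.37 higher than NC. A match does not show that a factor binds there.

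Other genes of the pathway were taken from lists written by hand. Of 10 further genes of the same families, 5 were lower and 5 higher than NC in both knockdowns, with a median of 0.06. Among the lower genes, DUSP7, SPRY3 and SPRED3 were not well above background on every array, so their direction rests on dim or floored values. Of the 10, 1 was higher and 0 were lower past 1.5-fold in both, against 6.36% and 8.02% of all genes. It was DUSP2, an inducible nuclear phosphatase for ERK, with an intensity of 102 in NC, against 398 in SMARCA4-KD1 and 341 in SMARCA4-KD2, or 3.68-fold and 3.27-fold higher than NC.

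Of 24 other genes that ERK is known to induce, 9 were at least 1.5-fold higher than NC in both knockdowns, against 6.36% of all genes, and 1 was at least 1.5-fold lower in both, against 8.02%. The median was 0.20. By any amount, 14 were higher and 6 lower than NC in both knockdowns, and 4 had opposite signs. Of all 22619 genes, 9308 were higher and 8878 lower in both. Among the 9 were 5 immediate early transcription factor genes. EGR1 was higher by 1.24 and 1.28, EGR2 by 0.98 in both, FOS by 1.06 and 1.13, and FOSB by 1.71 and 0.95. EGR3 was not well above background in NC and was at least 5.61-fold and 5.92-fold higher in the knockdowns. It thus passed the detection filter, and counts among the 9, through the knockdown arrays alone. With detection on all arrays required, 23 of the 24 genes remained, with a median of 0.17. IER2 was higher by 0.71 and 0.61. ZFP36, which encodes an mRNA decay factor, was 1.73-fold higher in both, and TRIB1, a pseudokinase gene, 1.83-fold and 1.69-fold. HMGA2, a chromatin architectural gene with 3 probes, was higher by 1.20 and 0.96. CCND1, which encodes cyclin D1, was the one lower gene, with differences of -0.71 and -0.99. The 9 genes were on the side of NC where DUSP1 and DUSP5 lay, and CCND1 was on that of DUSP6 and PHLDA1.

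Of 14 other negative regulators of RAS and its receptors, 8 were lower and 2 higher than NC in both knockdowns. The median was -0.07, a sign that turns with the spike-in scaling, and DAB2IP, a RAS GTPase-activating protein gene, was the one past 1.5-fold in both, with -0.92 and -0.75, where 8.02% of all genes were lower in both. Of 20 components of the cascade, 19 were measured, as KSR1 was not well above background on any array. Of those at least 1.5-fold from NC in both knockdowns, HRAS (lower, -1.17 and -0.91) and NRAS (higher, 1.06 and 0.97) are reported here. These are not a full count, and 8.02% of all genes were lower in both and 6.36% higher. The median of the cascade was 0.19. No set test was run on these lists, and ERK activity itself was not measured on the arrays.

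PHLDA1 and DUSP6 were lower, and DUSP5 higher, than NC by the mean of both knockdowns under each of the ways of processing tried. Many of these ways could not move the values. Detection on all arrays, no filter, no floor, the mean over probes and the series-level table gave the same values as the main processing. Only quantile normalization, the percentile of probes detected on all arrays, spike-in scaling and normexp correction changed them. Without the spike-in scaling, the mean difference of PHLDA1 lay between -1.28 and -1.15, that of DUSP6 between -0.69 and -0.52, and that of DUSP5 between 0.54 and 0.65. Scaled to the spike-in probes, these values were -0.90, -0.28 and 0.96. The DUSP6 difference minus the DUSP5 difference, as a mean of both knockdowns, was -1.24 with the main processing. A factor common to an array cannot change it, so its constancy under such scaling is built in. It was -1.23 with quantile normalization and -1.17 with normexp correction, and the other settings left it unchanged.

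**Figure D4:**
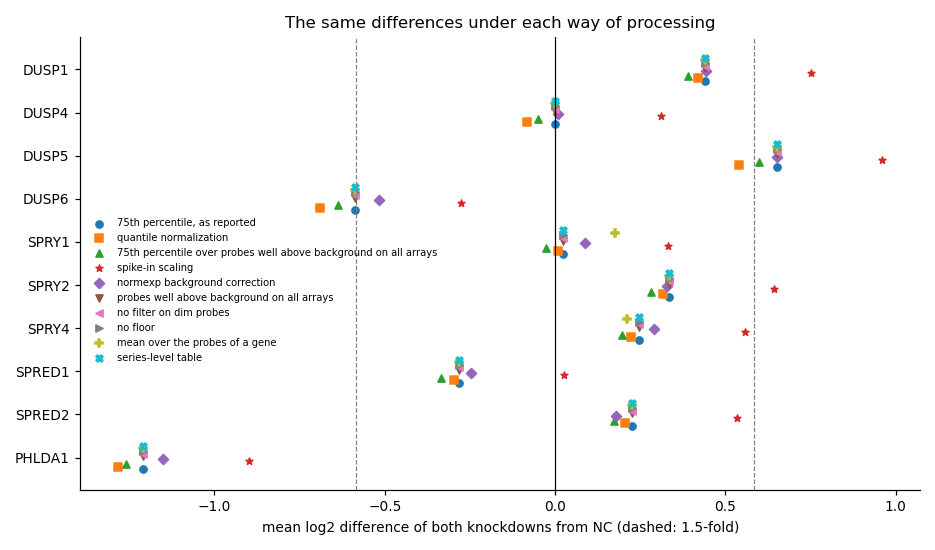
Mean log2 difference of both knockdowns from NC for each feedback inhibitor under each way of processing, one symbol per setting, with dashed lines at 1.5-fold. The spike-in scaling (stars) moves every gene upward by the same amount. PHLDA1 stays beyond 1.5-fold under every setting drawn, though several of these settings leave its value unchanged.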

How the data were processed

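Total RNA of HCT116 cells was labeled with Cy3 and hybridized to Agilent SurePrint G3 arrays, with 1 array for NC and 1 for either knockdown. The authors deposited the intensity of each spot from Agilent Feature Extraction 10.7.1.1, after background subtraction and detrending but without normalization between arrays, and a series-level table of the same processed intensity. Control and outlier spots were left out, repeated spots were averaged on the log2 scale, and the array's 75th percentile over non-control probes was subtracted. A value not well above background was raised to a floor, the lowest value on its array that was. A probe was kept if it was well above background on any array, and each gene was represented by its brightest probe. Genes were called at 1.5-fold, the fold threshold of the methods, with no test, since each condition had 1 array, which limits the precision. Gene names and hg19 positions are those of the array files. All feedback inhibitors, SMARCA4, PRMT1 and every listed gene at least 1.5-fold from NC in the same direction in both knockdowns are named, except for items that are not reported here. The genes and lists were chosen with earlier results of these data known. The alternatives were quantile normalization, the percentile of probes detected on all arrays, spike-in scaling, normexp background correction (offset 50), detection on all arrays or no filter, values without the floor, the mean over a gene's probes, the series-level table and a threshold of 2-fold. R 4.3.3 with limma 3.58.1 was used for the normexp background correction, and Python 3.11.15 with pandas 2.3.3 and numpy 2.4.6 for all else. The steps were tested on simulated data with changes of 2-fold or more, so calls near 1.5-fold were not tested. Promoter sequences are those of RefSeq (GRCh38.p14).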

Additional observations from a re-analysis of the deposited data

How the results depend on the processing

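Over 10 alternatives and 38 results, 345 values were recomputed. Of these, 307 moved by less than 0.18, the SD of 1 array estimated from both knockdown arrays (counts by no more than 1.5 times). Another 38 moved further, and 0 called values changed sign. These counts do not measure robustness. Filters, the floor, the mean over probes and the series-level table leave most values of the feedback inhibitors unchanged. A change of sign was counted only for values at least 1.5-fold (0.585) from NC, more than the spike-in shift of 0.30 and 0.32. The count of feedback inhibitors at least 1.5-fold lower in both knockdowns was 2 under quantile normalization and 2 with the percentile of probes detected on all arrays, where DUSP6 joined PHLDA1. Under spike-in scaling the count higher in both was 3 (DUSP1, DUSP5 and SPRY2), the median of the feedback inhibitors was 0.43, that of the other ERK target genes 0.51, and SMARCA4 was at -1.54. This scaling adds 1 constant to all genes of an array, and whether spike-in amounts or RNA amounts differed was not tested. SPRY1, at 0.11 and -0.06 with its brighter probe, was at 0.15 in SMARCA4-KD2 when both probes were averaged. At 2-fold, PHLDA1 was still lower in both knockdowns, as were 476 of all genes, with 330 higher, and after normexp background correction 859 genes were lower and 902 higher at 1.5-fold. No paired analysis was possible because each condition had 1 array. Signal over background limits the second probes of SPRY4 and PHLDA1, the NC value of EGR3, and the values of DUSP7, SPRY3 and SPRED3. The use of 1 array per condition on 2 slides limits every difference from NC.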
